A study of Mus musculus with 6 samples.

Results

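Genes that mark the myeloid, megakaryocyte and platelet lineages were followed in C1498, a mouse leukemia line. The set holds 39 genes, chosen by name for their lineage, with earlier results of these data known. Of these, 35 have at least 1 probe set assigned to that gene alone, out of 19938 genes with such a probe set. Gp1ba, Gp6 and Selp have no such probe set in the gene table used, and the probe set that covers Gp1bb is shared with Septin5, so these 4 genes were not analysed here. C1498 cells, of C57BL/6J origin and described by the submitters as AML cells, were given PJ34, a small-molecule inhibitor of PARP-1, at 20 μM for 48 h, or PBS for the same time. Each group was measured on 3 arrays of total RNA. C1498 is a single established line grown alone in culture, so the arrays hold no normal blood cells to compare with. The study calls the experiments independent, but nothing says whether the samples of a group came from separate cultures, so p-values measure only the spread between these samples, which may be technical.

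Myeloid cells are recognised by what they store, kill with and engulf with. Immature granulocytes fill azurophil granules with myeloperoxidase and serine proteases, later neutrophil stages add specific granules, and monocytes and macrophages carry Fc receptors, scavenger receptors and an oxidase that makes superoxide. Megakaryocytes make platelets, which bind damaged vessel walls through glycoprotein receptors and release chemokines and adhesive proteins from alpha granules. In AML, differentiation along these paths is blocked, and the study asked which genes follow PARP-1 inhibition in such cells.

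Values are log2 expression values, where a step of 1 is a doubling of signal. The array medians lay between 4.42 and 4.46 with PJ34 and between 4.41 and 4.44 with PBS. Arrays correlated at 0.992 to 0.995 within and between groups. PJ34 replicate 2 stood slightly apart. It reached at most 0.9927 with any other array, whereas each of the others reached 0.9943 to 0.9949 with its closest array. The value table has no detection calls. As a rough guide to signal without a transcript, each PBS mean was set beside 1035 probe sets of olfactory receptor genes, a family not known to be transcribed in blood cells, whose 95th percentile lay at 3.84 and 99th percentile at 4.66. Probe sets differ in how well they bind, so a level places a gene against this range but does not rank it against another gene.

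Most members gave little signal in these cells and moved little with PJ34. Of the 35 members, 18 lay at or below the 95th percentile of the olfactory receptor probe sets in PBS, 11 lay between the 95th and the 99th, and 6 lay above the 99th. The 6 were Cyba, Fcgr3, Fcgr1, Treml1, Tubb1 and Cd68. With PJ34, 3 members rose at an adjusted p under 0.05 from limma, Fcgr1, Cd68 and Ppbp, and none fell. These 3 are 8.57% of the members, beside 3.06% of all 23411 probe sets tested. By direction, 1.72% of all probe sets tested were called higher and 1.34% lower. At an unadjusted p under 0.05, which 16.7% of all probe sets reached, there were 4 members (11.4%), Elane joining the 3. The 3 PJ34 arrays lay above the 3 PBS arrays for 4 members, or 11.4%, beside 12.6% of all probe sets. They lay below them for 1 member, or 2.86%, beside 10.9% of all probe sets. In either direction 23.5% of all probe sets did not overlap between groups. By overlap of the groups, members thus separated upward about as often as probe sets in general. Downward only 1 member did, a count too small to read as a difference, and the shares were not tested.

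The log2 fold changes (PJ34 minus PBS) ran from -0.20 for Elane to 0.63 for Fcgr1, with 18 above and 17 below 0. Their median was 0.01, beside 0.0029 for all probe sets tested, and the median size was 0.08 for the members and 0.083 for all probe sets. None of the members reached a 2-fold change. Of the 32 members that did not pass, 31 had a 95% confidence interval that lay wholly within a 1.5-fold change in either direction, the exception being Lyz2. For members in the olfactory receptor range this interval bounds the signal, of which an unknown share is background.

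**Figure D1:**
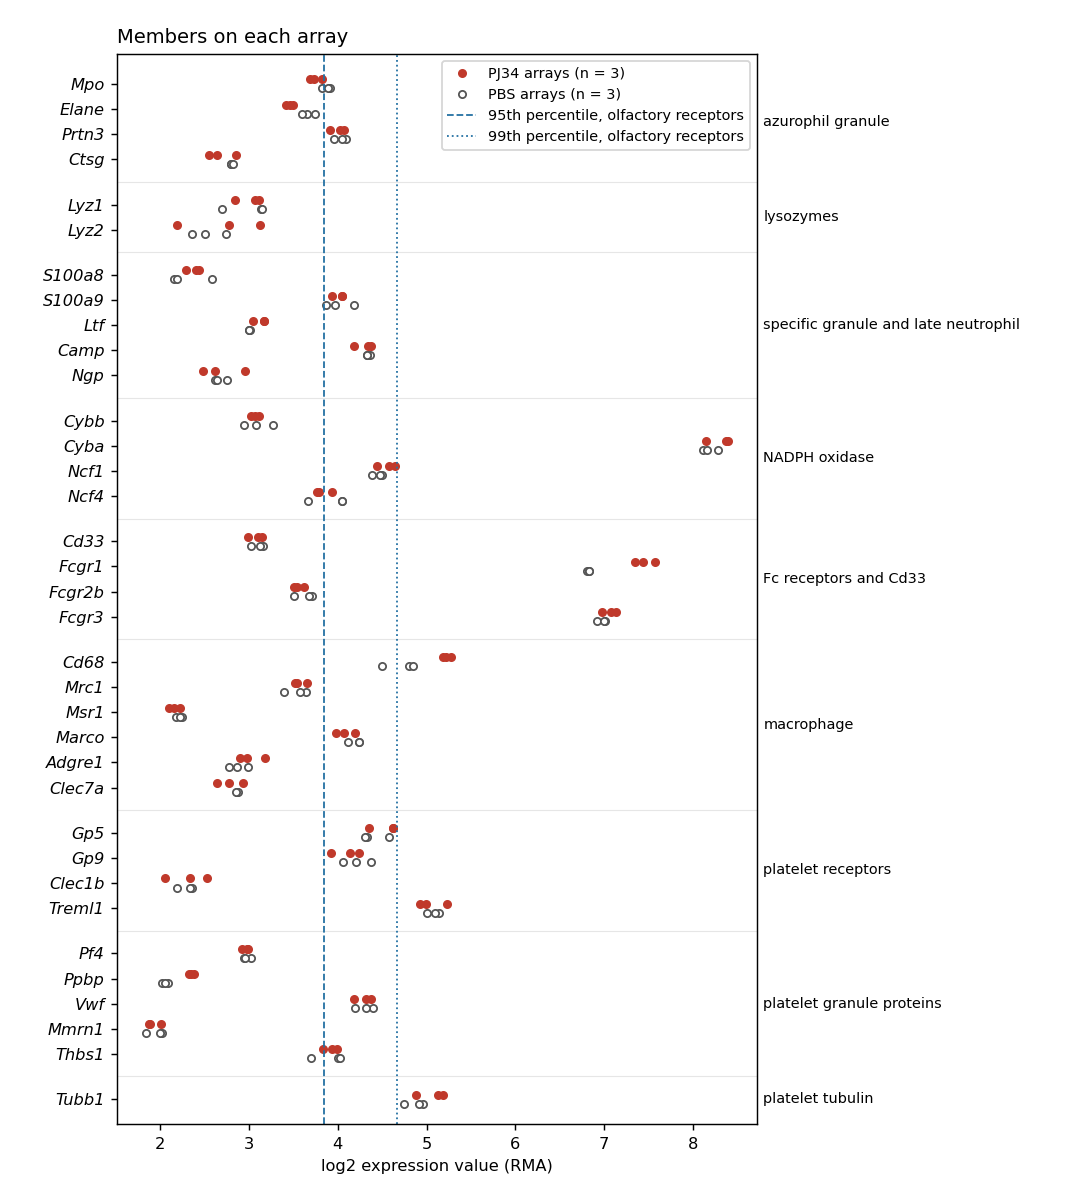
Log2 expression value (horizontal axis) of each of the 35 members on the 3 PJ34 arrays (red) and the 3 PBS arrays (open), grouped by role, with the 95th (3.84, dashed) and 99th (4.66, dotted) percentile of olfactory receptor probe sets in PBS. Most members lie left of the dotted line, Cyba, Fcgr3 and Fcgr1 lie far to its right, and the groups separate most widely for Fcgr1 and Cd68.

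**Figure D2:**
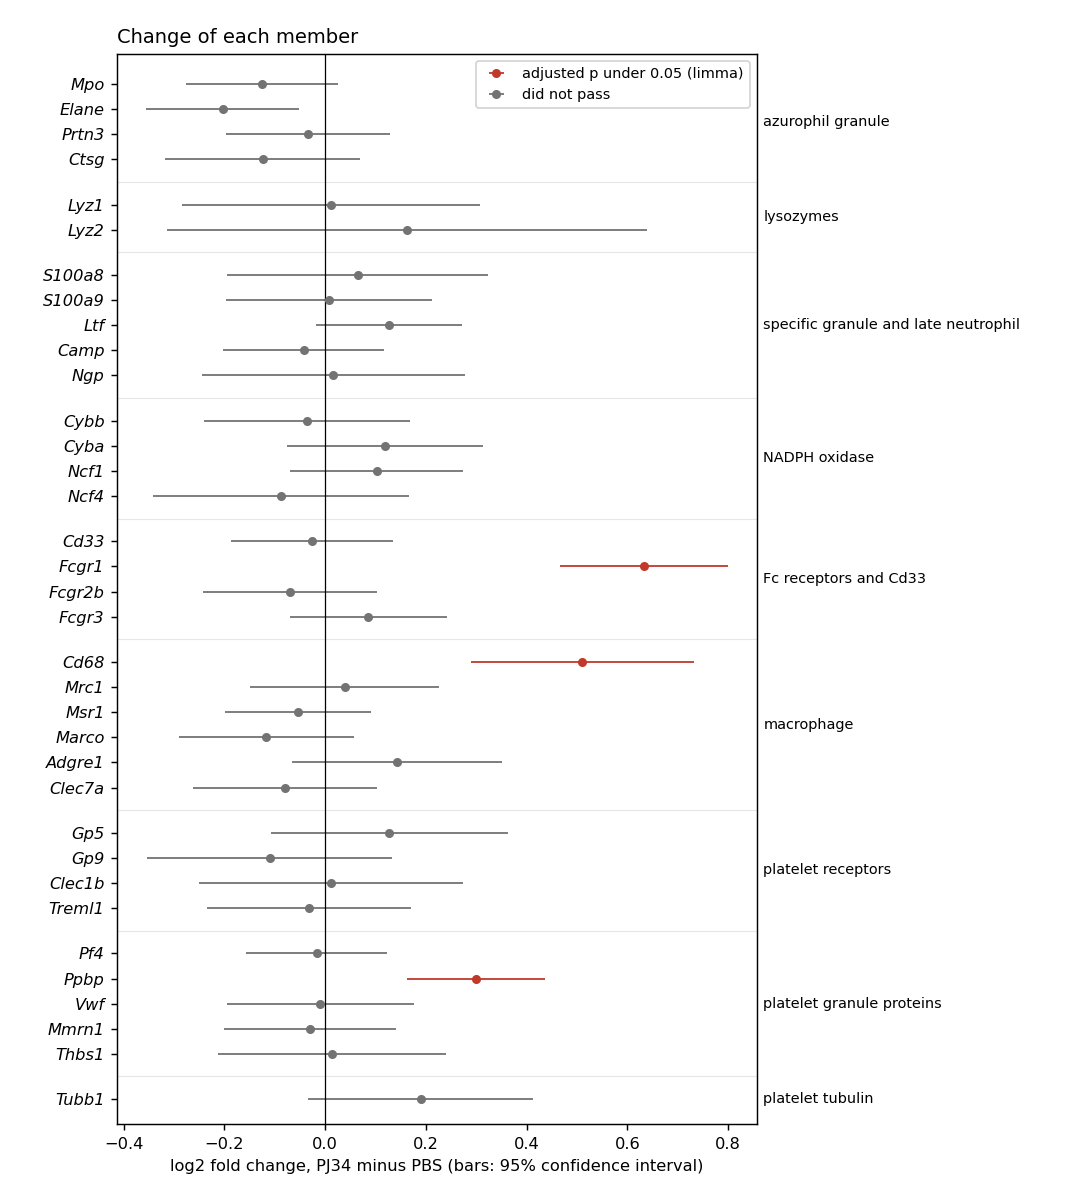
PJ34 effect on each member as a log2 fold change over PBS (horizontal axis), with its 95% confidence interval from limma, in red for the 3 members past an adjusted p of 0.05. Fcgr1 (0.63), Cd68 (0.51) and Ppbp (0.30) stand to the right, and the interval of Lyz2 is the widest.

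Among the Fc receptors, which bind the constant part of antibodies, Fcgr1 rose and Fcgr3 did not pass the test. Fcgr1 encodes the high-affinity receptor for IgG of monocytes and macrophages. Its log2 values were 7.44, 7.57 and 7.35 on the PJ34 arrays, against 6.80, 6.83 and 6.83 on the PBS arrays. All PJ34 arrays were above all PBS arrays, and the PBS values were tightly grouped. The log2 fold change was 0.63 (SE 0.073, adjusted p = 0.00488 from limma), a ratio of 1.55 (95% confidence interval 1.38 to 1.74). Fcgr1 kept its call when any 1 of the 6 arrays was left out. It lost it only with the methods' t-test after an adjustment that the study's methods do not name (adjusted p = 0.0648).

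Fcgr3 encodes a low-affinity activating receptor for IgG that signals through the common Fc receptor gamma chain. It had 6.98, 7.13 and 7.08 with PJ34, against 7.02, 6.92 and 7.0 with PBS, and the groups overlapped. Its log2 fold change was 0.09, with a 95% confidence interval of -0.07 to 0.24. The difference Fcgr1 minus Fcgr3 within an array was 0.46, 0.44 and 0.27 on the PJ34 arrays, against -0.21, -0.08 and -0.18 on the PBS arrays. The arrays of the groups did not overlap in this difference, which moved by 0.55 (exact two-sided permutation test, p = 0.1, adjusted p = 0.1). The adjustment was over 2 pairs computed, the other being Ppbp and Pf4, and 0.1 is the smallest p that 3 against 3 arrays allow. Since Fcgr1 alone separated the groups and Fcgr3 moved little, this difference adds no evidence beyond the values of Fcgr1. Fcgr2b, the inhibitory receptor, and Cd33, a sialic acid binding lectin of myeloid cells, had PBS means of 3.63 and 3.10, within the olfactory receptor range. Their log2 fold changes were -0.07 and -0.03, and neither passed.

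Among the macrophage genes, Cd68 rose and none of the other 5 passed. Cd68 encodes a heavily glycosylated lysosomal membrane protein of macrophages. Its log2 values were 5.27, 5.22 and 5.18 with PJ34, against 4.49, 4.80 and 4.85 with PBS. The PJ34 arrays lay close together above all PBS arrays, and PBS replicate 1 was the lowest. The log2 fold change was 0.51 (SE 0.097, adjusted p = 0.0309 from limma), a ratio of 1.42 (1.22 to 1.66). Cd68 did not pass when any 1 of the 6 arrays was left out (adjusted p = 0.0519 to 0.106), the log2 fold change then being 0.40 to 0.58, lowest without PBS replicate 1.

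The receptors that macrophages use for uptake stayed low. Mrc1 (mannose receptor), Msr1 (scavenger receptor), Adgre1 (an adhesion receptor of mature macrophages) and Clec7a (the beta-glucan receptor Dectin-1) had PBS means of 2.22 to 3.53, below the 95th percentile of the olfactory receptor probe sets. Marco, another scavenger receptor, had a PBS mean of 4.20, between the 95th and the 99th percentile. The log2 fold changes of these 5 ran from -0.12 for Marco to 0.14 for Adgre1.

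Among the proteins of platelet alpha granules, Ppbp rose while lying within the range of the olfactory receptor probe sets. Ppbp encodes the precursor of a platelet chemokine that attracts neutrophils. Its log2 values were 2.35, 2.33 and 2.38 with PJ34, against 2.09, 2.02 and 2.06 with PBS, and the groups did not overlap. The log2 fold change was 0.30 (SE 0.06, adjusted p = 0.037 from limma), a ratio of 1.23 (1.12 to 1.35). Its PBS mean of 2.05 lay below the olfactory receptor median of 2.24, and the PJ34 values stayed far below the 95th percentile. Of the 1035 olfactory receptor probe sets, 1 was called higher and 1 lower in the same fit. Ppbp did not pass when any 1 of the 6 arrays was left out (adjusted p = 0.0512 to 0.152), nor when arrays were centred on their medians (adjusted p = 0.0561).

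Pf4, the gene next to Ppbp in the chemokine cluster of chromosome 5 and likewise an alpha-granule chemokine, had 2.99, 2.92 and 2.97 with PJ34, against 3.03, 2.95 and 2.95 with PBS. The groups overlapped, and the log2 fold change was -0.02 (95% confidence interval -0.16 to 0.12). Both genes lay within the olfactory receptor range on every array, so no difference between them is drawn.

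The adhesive proteins of the platelet granule did not pass. Vwf, von Willebrand factor, had 4.32, 4.18 and 4.38 with PJ34, against 4.40, 4.19 and 4.32 with PBS. Thbs1, thrombospondin, had 4.0, 3.83 and 3.94 with PJ34, against 4.01, 3.69 and 4.03 with PBS. For both genes replicate 2 was the lowest array of each group. Their log2 fold changes were -0.01 and 0.01. Mmrn1, multimerin, had a PBS mean of 1.95 and a log2 fold change of -0.03.

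**Figure D3:**
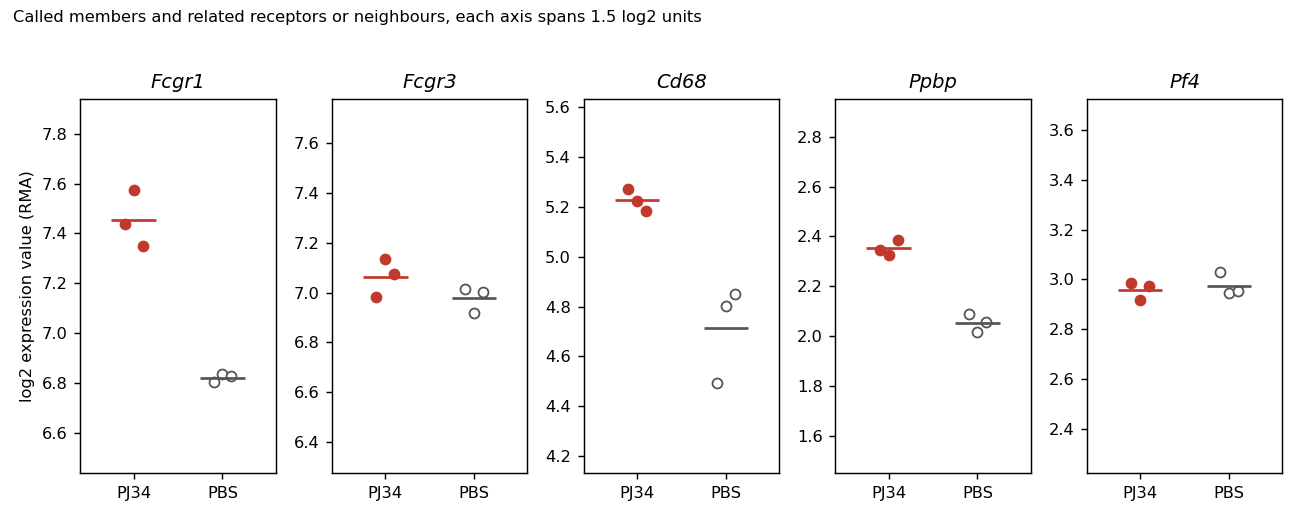
Log2 expression value (vertical axis, each spanning 1.5 units) of Fcgr1, Fcgr3, Cd68, Ppbp and Pf4 on the 3 PJ34 arrays (red) and the 3 PBS arrays (open), where a line marks each group mean. PJ34 and PBS arrays are apart for Fcgr1, Cd68 and Ppbp and overlap for Fcgr3 and Pf4.

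The promoter sequences of the 3 members that rose, and of Pf4 as the neighbour of Ppbp that did not pass, are shown because lineage factors are known to act at such sites. Each is the 250 bases before the gene's start in RefSeq (GRCm38.p6), 5′ to 3′ on the gene's strand. Capitals mark matches, on either strand, to GAGGAA (the core bound by the myeloid factor PU.1), AGATAA or TGATAA (bound by GATA factors of megakaryocytes and red cells) or TGANTCA (bound by AP-1, where N is any base).
Fcgr1, chr3:96293970-96294219, minus strand: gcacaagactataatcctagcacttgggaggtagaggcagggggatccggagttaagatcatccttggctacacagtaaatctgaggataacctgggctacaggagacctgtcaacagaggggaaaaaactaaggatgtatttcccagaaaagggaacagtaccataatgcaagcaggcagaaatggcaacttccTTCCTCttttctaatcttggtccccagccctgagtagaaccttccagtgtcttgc
Cd68, chr11:69666171-69666420, minus strand: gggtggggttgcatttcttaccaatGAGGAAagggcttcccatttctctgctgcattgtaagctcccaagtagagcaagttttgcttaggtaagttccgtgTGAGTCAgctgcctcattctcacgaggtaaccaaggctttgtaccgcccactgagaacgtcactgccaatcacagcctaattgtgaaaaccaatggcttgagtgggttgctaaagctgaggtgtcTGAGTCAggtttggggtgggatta
Ppbp, chr5:90768268-90768517, plus strand: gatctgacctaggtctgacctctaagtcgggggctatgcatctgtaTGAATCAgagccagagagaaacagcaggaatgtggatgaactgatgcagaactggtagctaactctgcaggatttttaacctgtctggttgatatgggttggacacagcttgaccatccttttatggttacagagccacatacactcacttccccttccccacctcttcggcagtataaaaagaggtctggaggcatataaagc
Pf4, chr5:90772185-90772434, plus strand: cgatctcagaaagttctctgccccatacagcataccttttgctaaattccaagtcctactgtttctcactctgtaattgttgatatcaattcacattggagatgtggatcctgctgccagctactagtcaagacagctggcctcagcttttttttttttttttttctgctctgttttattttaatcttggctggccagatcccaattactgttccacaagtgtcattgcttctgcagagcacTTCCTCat

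The Fcgr1 window held 1 match to GAGGAA, read on the other strand as TTCCTC, and none to the other motifs. That of Cd68 held 1 match to GAGGAA and 2 to TGANTCA, both spelled TGAGTCA. That of Ppbp held 1 match to TGANTCA and that of Pf4 1 to GAGGAA, and no matches overlapped. A window was found for 34 of the 39 genes of the set and for 27025 genes in all, some with several starts, and a gene was counted if any of its windows of 250 bases matched. Of all these genes, 25.9% held GAGGAA, 11.4% AGATAA, 9.21% TGATAA and 7.82% TGANTCA. Of the 34, 19 (55.9%) held GAGGAA, 6 (17.6%) AGATAA, 6 (17.6%) TGATAA and 5 (14.7%) TGANTCA. The motifs were chosen with the sequences in view, so no excess is read from these shares. The matches describe letters and not binding.

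The genes of azurophil granules gave signals in or near the olfactory receptor range, and each had a PJ34 mean below its PBS mean without passing the test. Mpo, myeloperoxidase and a defining enzyme of myeloid blasts, had 3.83, 3.73 and 3.69 with PJ34, against 3.82, 3.92 and 3.89 with PBS. The groups overlapped, through PJ34 replicate 1, and the log2 fold change was -0.13 (SE 0.066, adjusted p = 0.398 from limma). Elane, neutrophil elastase, had 3.46, 3.42 and 3.50 with PJ34, against 3.65, 3.60 and 3.74 with PBS. Elane was the only member with all PJ34 arrays below all PBS arrays, but it did not pass, at -0.20 on the log2 scale (SE 0.067, adjusted p = 0.161 from limma).

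Prtn3, proteinase 3, lies next to Elane in the genome. It had 4.07, 3.91 and 4.02 with PJ34, against 4.10, 3.96 and 4.05 with PBS, and a log2 fold change of -0.03. Replicate 2 was the lowest array in each group. Ctsg, cathepsin G, had a PBS mean of 2.81 and a log2 fold change of -0.12. The mean of the 4 genes was 3.42 to 3.52 on the PJ34 arrays, against 3.57 to 3.63 on the PBS arrays.

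The lysozymes, enzymes that cut bacterial cell walls, varied more between arrays of a group than between groups. Lyz2, used as a marker of macrophages and neutrophils in mice, had 3.12, 2.77 and 2.19 with PJ34, against 2.74, 2.50 and 2.35 with PBS. PJ34 replicate 1 was the highest array and PJ34 replicate 3 the lowest, so that the PJ34 values enclosed the PBS values. The log2 fold change was 0.16 (95% confidence interval -0.31 to 0.64). Lyz1, known from Paneth cells, had 2.84, 3.11 and 3.07 with PJ34, against 3.14, 3.15 and 2.70 with PBS, and a log2 fold change of 0.01. The genes are neighbours of near-identical sequence, and signal of one may reach the probe set of the other. Both lay below the 95th percentile of the olfactory receptor probe sets.

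None of the 5 genes of specific granules and late neutrophils passed, and none lay above the 99th percentile of the olfactory receptor probe sets. Camp, the cathelicidin, had 4.37, 4.19 and 4.34 with PJ34, against 4.37, 4.33 and 4.33 with PBS, with a log2 fold change of -0.04. S100a8 and S100a9 encode the subunits of calprotectin, the most abundant cytosolic protein of neutrophils. Their PBS means were 2.31 and 4.01, and their log2 fold changes 0.06 and 0.01. Ltf, lactoferrin, had 3.17, 3.05 and 3.17 with PJ34, against 3.01, 3.00 and 3.00 with PBS. Its groups did not overlap, but it did not pass, at 0.13 on the log2 scale (SE 0.063, adjusted p = 0.368 from limma). Ngp, a neutrophil granule protein, had a log2 fold change of 0.02.

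The superoxide-generating NADPH oxidase was represented unevenly. Cyba, the small membrane subunit of the oxidase, had 8.37, 8.15 and 8.39 with PJ34, against 8.11, 8.16 and 8.29 with PBS. Every array was far above the 99th percentile of the olfactory receptor probe sets, and the groups overlapped through PJ34 replicate 2. The log2 fold change was 0.12 (SE 0.085, adjusted p = 0.56 from limma). Cybb, its catalytic partner, had 3.02, 3.06 and 3.11 with PJ34, against 3.08, 3.27 and 2.94 with PBS, all within the olfactory receptor range. Of the cytosolic subunits, Ncf1 had a PBS mean of 4.46 and a log2 fold change of 0.10, and Ncf4 had 3.92 and -0.09. Cyba thus gave a strong signal in cells where the probe set of its membrane partner did not.

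Of the platelet surface receptors, 4 of 7 were measured and none passed. Treml1, a receptor of platelet alpha granules, had 5.00, 4.93 and 5.23 with PJ34, against 5.14, 5.10 and 5.01 with PBS. PJ34 replicate 3 was the highest array and PJ34 replicate 2 the lowest, and the log2 fold change was -0.03. Gp5 and Gp9 encode subunits of the receptor for von Willebrand factor. Gp5 had 4.35, 4.62 and 4.62 with PJ34, against 4.33, 4.58 and 4.31 with PBS, a log2 fold change of 0.13 with overlapping groups. Gp9 had a PBS mean of 4.21 and a log2 fold change of -0.11. Clec1b, a podoplanin receptor of platelets, had a PBS mean of 2.29 and a log2 fold change of 0.01.

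Tubb1, the beta tubulin of megakaryocytes and of the platelet's marginal band, had 5.18, 4.88 and 5.13 with PJ34, against 4.97, 4.74 and 4.91 with PBS. Its values lay above the 99th percentile of the olfactory receptor probe sets on every array, replicate 2 was the lowest of each group, and the groups overlapped. The log2 fold change was 0.19 (SE 0.098, adjusted p = 0.385 from limma). Over the 10 measured platelet genes, the mean log2 value was 3.55 to 3.71 on the PJ34 arrays and 3.58 to 3.64 on the PBS arrays. Over the 25 myeloid genes it was 3.88 to 3.95 with PJ34 and 3.86 to 3.89 with PBS.

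Further genes of these lineages, none of them members, were counted in the same way. Of 42 other myeloid genes measured, 1 (2.38%) rose, beside 1.72% of all probe sets tested, and none fell. It was Cx3cr1, the fractalkine receptor of monocytes and also of cytotoxic lymphocytes, with 7.80, 7.93 and 7.73 with PJ34, against 6.86, 7.15 and 7.21 with PBS. The groups were clearly apart, and the log2 fold change was 0.75 (SE 0.10, adjusted p = 0.00874 from limma). Cx3cr1 kept its call when any 1 array was left out. It lost it when all 35556 probe sets were tested (adjusted p = 0.056) and with the methods' t-test (adjusted p = 0.11). Of these 42 genes, 10 lay above the 95th percentile of the olfactory receptor probe sets in PBS and 5 above the 99th, and their median log2 fold change was 0.03.

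Of 26 other megakaryocyte and platelet genes measured, 2 (7.69%) fell, beside 1.34% of all probe sets tested, and none rose. In PBS 14 of the 26 lay above the 95th percentile of the olfactory receptor probe sets and 8 above the 99th, and their median log2 fold change was 0.02. Rgs18, a regulator of G protein signalling known from platelets, had 3.99, 4.42 and 3.96 with PJ34, against 4.85, 4.83 and 4.91 with PBS. PJ34 replicate 2 was the highest PJ34 array, still below all PBS arrays, and the log2 fold change was -0.74 (SE 0.12, adjusted p = 0.0158 from limma). With 1 array left out, Rgs18 passed only without PJ34 replicate 2, and the adjusted p was 0.0534 to 0.0654 without each of the other arrays. P2rx1, an ATP-gated channel of platelets, had 7.58, 7.60 and 7.50 with PJ34, against 7.79, 7.91 and 7.90 with PBS. Its log2 fold change was -0.31 (SE 0.067, adjusted p = 0.0489 from limma), and it did not pass without any 1 of the 6 arrays (adjusted p up to 0.179). Itga2b and Itgb3, which encode the fibrinogen receptor of platelets, had PBS means of 4.76 and 4.84, just above the 99th percentile, and log2 fold changes of -0.03 and 0.05.

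Markers of T and NK, B and erythroid cells were checked because the cells are labelled as myeloid. Markers of mast cells and basophils were read as well. The T cell receptor chains Cd3g and Cd3e had PBS means of 11.1 and 10.4, far above the olfactory receptor range. Cpa3, the carboxypeptidase of mast cells and basophils, had 11.9, also far above it. These are the highest genes of their lists. Cd3d had 4.81, just above the 99th percentile, and Cd247 had 4.05, below it. Of the mast cell and basophil genes, Kit had 4.11 and Fcer1a 2.25, also below it. Mpo, Elane, Prtn3 and Ctsg, the azurophil granule genes, had PBS means of 2.81 to 4.04, all below the 99th percentile of the olfactory receptor probe sets. Cd3g, Cd3e and Cpa3 thus gave strong signals, and the azurophil granule genes gave no clear signal on these arrays. Some genes of the myeloid lists were also far above the 99th percentile in PBS. They were Rac2 (10.8), Itgb2 (8.34), Cyba (8.19), Cx3cr1 (7.07), Fcgr3 (6.98) and Fcgr1 (6.82). Above that percentile lay 4 of the 25 myeloid members and 5 of the 42 other myeloid genes. The arrays hold no normal blood cells, so they do not show how far genes of the myeloid lists are restricted to that lineage. Of 18 T and NK cell genes measured, 5 lay above the 99th percentile in PBS and 11 above the 95th. Their PBS means ran from 1.84 to 11.1. Of 7 mast cell and basophil genes 2 lay above the 99th, and of 7 B cell and 4 erythroid genes none did.

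These markers were also compared between PJ34 and PBS. Among the T and NK genes 2 of 18 rose (11.1%, beside 1.72% of all probe sets) and none fell. Cd4 rose by 0.62 (adjusted p = 0.00246 from limma) and Gzma by 0.90 (adjusted p = 0.0139 from limma), both with PBS means within the olfactory receptor range. No marker of B cells, erythroid cells or mast cells passed, with an unadjusted p under 0.05 for 0, 0 and 1 of them. With 1 array left out, Cd4 passed each time, whereas Gzma passed only without PJ34 replicate 3 or without PBS replicate 1 (adjusted p = 0.0512 to 0.0633 without each of the other arrays). The mean log2 value of the T and NK list was 4.88 to 4.90 on the PJ34 arrays, against 4.79 to 4.81 on the PBS arrays. Without Cd4 and Gzma it was 4.92 to 4.97 with PJ34, against 4.93 to 4.95 with PBS, and the groups overlapped. The median log2 fold change of the whole list was 0.04, and Zap70, a kinase of T cell receptor signalling, had -0.26 and did not pass (adjusted p = 0.0639 from limma). Whether the changes of Cd4 and Gzma bear on those of Fcgr1, Cd68 and Ppbp was not tested. In bulk RNA, more or fewer cells of a type and more or less RNA per cell cannot be told apart.

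**Figure D4:**
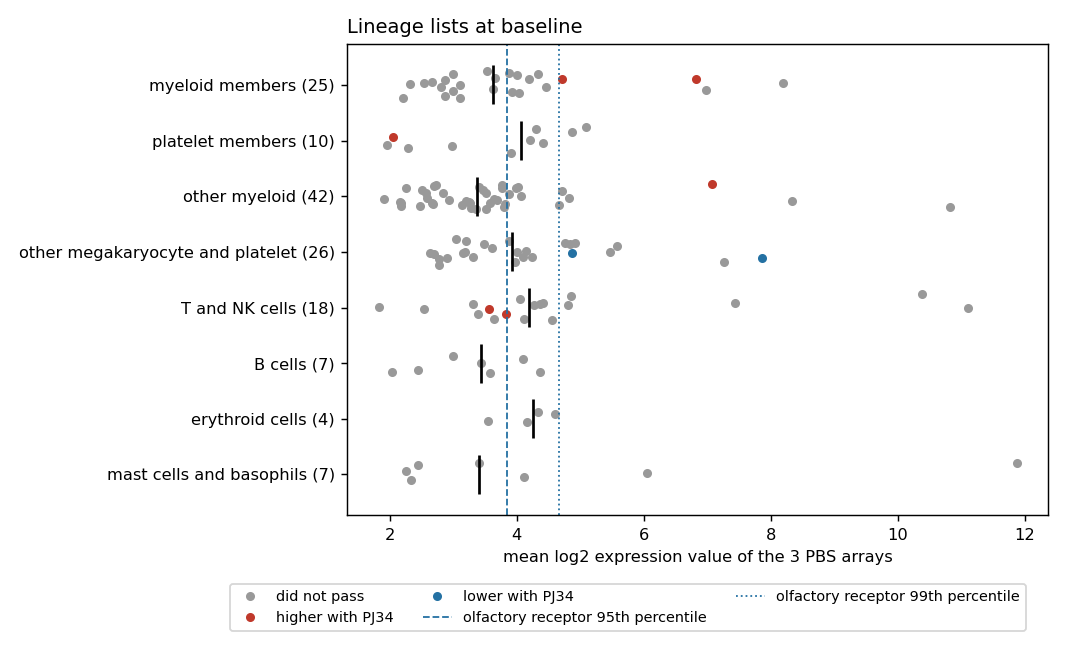
Mean log2 expression value of the 3 PBS arrays (horizontal axis) for each measured gene of 8 lineage lists, with the number of genes in brackets, list medians as black bars, and dashed and dotted lines at the 95th (3.84) and 99th (4.66) percentile of olfactory receptor probe sets. Red and blue points rose or fell with PJ34, and the farthest points to the right are Cpa3, Cd3g, Rac2 and Cd3e.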

How the data were processed

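C1498 cells were profiled on 6 Affymetrix Mouse Gene arrays, 3 with PJ34 and 3 with PBS, grouped by the labels. The authors processed the arrays by RMA in Affymetrix Expression Console 1.3.1, per the submitters' processing notes, and deposited log2 expression values, after background correction, quantile normalization and a summary of the probes of each set. Quantile normalization makes array distributions alike and hides any global shift. The values were used as deposited. Array number limits the precision. The build used for the arrays is not given in the sources used here. Of 35556 probe sets, the gene table names 21789 by 1 gene and 1621 by several. All 23410 of these, and 1 more that the study names, were compared, PJ34 minus PBS, with limma 3.58.1 in R 4.3.3 (lmFit and eBayes), two-sided, adjusted by Benjamini-Hochberg over all 23411 probe sets, with a threshold of 0.05. The study's own t-test was run as an alternative, with the same adjustment added, which the study's methods do not name. The fit was tested on simulated data. Each gene was taken from its single-gene probe set with the highest mean over the 6 arrays. Promoter windows came from RefSeq, and motifs were chosen with the sequences in view.

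Named with array values are members past the threshold, in each role group the member with the highest PBS mean and that with the largest change above the olfactory receptor level, and of related genes those past the threshold. Beyond that rule Elane, Lyz2, Ltf, Cybb, Pf4 and the marker genes were named after their values were seen. The members, lists and tests were chosen with earlier results of these data known. Alternatives were array centring, another variance model, filters, the probe sets tested, a replicate block, the t-test and leaving out each array. The mean of the T and NK list without Cd4 and Gzma was added after the data were seen.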

Additional observations from a re-analysis of the deposited data

How the results depend on the processing

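Against 3 members higher and 0 lower, 2 were higher with arrays centred on their median, with an intensity trend and robust eBayes, or without dim probe sets. The count was 1 when all 35556 probe sets were tested, 1 with the replicate number as a block and 0 with the methods' t-test after adjustment, which at an unadjusted p under 0.05 had 4 members higher and 1 lower (14.3%, beside 15.9% of all probe sets). Leaving out 1 array gave 1 to 1 higher. In none of the 13 settings was a member called lower, and the 32 members not called were called in none. Of these, 16 changed sign in at least 1 setting. Fcgr1 lost its call only in the adjusted t-test. Cd68 lost it there, with any array left out, with all probe sets and with the block (adjusted p = 0.0645), and Ppbp in every setting that tested it but 1 probe set per gene. The filter on dim probe sets removed Ppbp.

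Of all probe sets, 403 were higher and 314 lower. These counts were 333 and 365 with arrays centred on their median, where lower calls outnumber higher ones, 1009 and 920 with an intensity trend and robust eBayes, 924 and 836 without dim probe sets, 112 and 76 over all probe sets, 220 and 140 with the replicate block, 78 and 62 with the t-test, and 144 to 282 and 79 to 320 when 1 array was left out. Deviations of same-numbered arrays correlated at -0.01, 0.13 and -0.01, and those of differently numbered arrays at -0.147 to 0.145. The numbers were therefore not taken to pair the samples. Above the olfactory receptor level lay 17 members at the 95th percentile, 6 at the 99th, and 15 to 17 when 1 PBS array was left out. No member has a further single-gene probe set, so that alternative could not be run. The causes were not tested.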

Other observations

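Among related genes that did not pass in the comparison of the report, Nrgn, a calmodulin-binding protein that platelets also hold, had 5.44, 5.23 and 5.62 with PJ34, against 5.08, 4.77 and 4.90 with PBS, without overlap (log2 fold change 0.52, adjusted p = 0.0524 from limma). Cd226, an adhesion receptor of platelets and lymphocytes, had 5.91, 6.08 and 5.90 with PJ34, against 5.73, 5.46 and 5.54 with PBS, also without overlap (0.39, adjusted p = 0.0577 from limma). Mmp9, a secreted gelatinase of neutrophils, had 3.85, 3.76 and 3.86 with PJ34, against 3.48, 3.47 and 3.61 with PBS, near the olfactory receptor level (0.30, adjusted p = 0.0577 from limma).

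F2rl3, a thrombin receptor of mouse platelets, had the largest log2 fold change of the megakaryocyte and platelet genes in the upward direction, 0.71, but also the widest spread. It had 4.28, 3.43 and 3.89 with PJ34, against 2.80, 3.44 and 3.24 with PBS, where its mean of 3.16 lay within the olfactory receptor range. PJ34 replicate 2 fell within the PBS range, and the change did not pass (SE 0.22, adjusted p = 0.138 from limma). Under the alternatives Nrgn passed in 6 of 13, the replicate block among them (adjusted p = 0.0483), Cd226 in 2 of 13, F2rl3 in 1 of 12 and Mmp9 in 0 of 12. These 4 genes were named after their values were seen.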
